A study of Mus musculus with 6 samples.

Results

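The genes of β-catenin, of the cytoplasmic complex that destroys it and of the Dishevelled proteins that restrain this complex were followed on arrays of mammary epithelial organoids, the ductal and alveolar fragments that remain after enzymatic digestion of the gland. The 10 genes were Ctnnb1, Gsk3a, Gsk3b, Apc, Axin1, Axin2, Csnk1a1, Btrc, Dvl1 and Dvl3. Every probe set annotated with exactly 1 of these symbols was taken, which gave 31 of the 45037 probe sets tested, and all 31 were kept because no filter on low values was applied. No probe set named a member together with another gene. Each gene had between 1 and 6 probe sets, so that 8 of the 10 genes were measured more than once on the same array.

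The 3 KO mice carried BK5-cre together with WWOX flox/flox, the 3 WT mice had WWOX flox/flox and no BK5-cre, and all were 8 weeks old and of a mixed 129/J and C57BL/6 background, with 1 array per mouse. The floxed alleles were thus present in both groups, and Cre only in KO, where a bovine keratin 5 promoter that switches on in epithelial precursors before birth drives it. No array held Cre with intact Wwox, so Cre and the loss of Wwox cannot be told apart here. The arrays are called WT1, WT2, WT3, KO5, KO6 and KO7 as in their descriptions.

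In the canonical Wnt pathway, β-catenin is held at a low level in the cytoplasm by a complex in which Axin and Apc act as scaffolds. Casein kinase 1α and then the glycogen synthase kinase 3 enzymes phosphorylate β-catenin on this scaffold, and the F-box protein encoded by Btrc brings it to a ubiquitin ligase for degradation. When a Wnt ligand binds its receptors, Dishevelled draws Axin to the membrane, β-catenin accumulates and enters the nucleus, and TCF/LEF factors then activate targets that include Axin2. β-catenin also joins cadherins to the actin cytoskeleton at adherens junctions, and in the mammary gland the pathway is known for its part in stem cell maintenance and side branching.

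The start regions of Gsk3b and Ctnnb1, which hold the probe sets with the widest differences below, and of Axin2, the direct target, are shown for the 250 bases before the RefSeq start site in GRCm38.p6, 5′ to 3′, with matches to the TCF/LEF core in capitals. 
Gsk3b, chr16:38088751-38089000, plus strand: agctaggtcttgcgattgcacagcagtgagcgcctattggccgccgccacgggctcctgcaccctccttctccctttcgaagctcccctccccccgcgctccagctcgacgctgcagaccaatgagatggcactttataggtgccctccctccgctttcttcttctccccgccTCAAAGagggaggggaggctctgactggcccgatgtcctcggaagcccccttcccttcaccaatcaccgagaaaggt
Ctnnb1, chr9:120933150-120933399, plus strand: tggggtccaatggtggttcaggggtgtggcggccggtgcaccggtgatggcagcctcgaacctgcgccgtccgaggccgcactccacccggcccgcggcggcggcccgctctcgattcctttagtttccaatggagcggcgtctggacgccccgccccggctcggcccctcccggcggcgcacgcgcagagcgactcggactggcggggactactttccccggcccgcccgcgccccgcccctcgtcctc
Axin2, chr11:108920099-108920348, plus strand: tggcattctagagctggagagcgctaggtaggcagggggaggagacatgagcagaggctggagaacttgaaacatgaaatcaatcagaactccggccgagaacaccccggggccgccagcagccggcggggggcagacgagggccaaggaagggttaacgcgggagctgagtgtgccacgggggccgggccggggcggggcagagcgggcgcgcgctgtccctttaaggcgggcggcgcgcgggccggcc
The core was searched as CTTTGA or CTTTGT on both strands, and these 2 words do not overlap each other. It was found in the Gsk3b window, 77 bases before the start, and in that of Gsk3a, and in none of the other windows of 6 members searched, against 27.6% of all 32841 windows. These windows held between 9 and 43 CpG dinucleotides, against a median of 6 over all windows. The letters alone say nothing about binding.

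Several facts of the arrays bear on the members. Wwox, the deleted gene, was at 7.77, 7.63 and 7.72 in WT and 6.23, 5.87 and 5.96 in KO on its brightest probe set (log2 change of -1.69, adjusted p = 0.023 by limma). Control transcripts with probes at each end separated the groups, and the 3' minus 5' difference averaged over Gapdh and β-actin, a measure of RNA quality that grows as 5' signal is lost, was 0.96, 2.13 and 1.81 in WT1, WT2 and WT3 against 0.55, 0.60 and 0.54 in KO5, KO6 and KO7. WT1 lay nearest to KO, and the groups did not overlap (exact permutation test, two-sided, p = 0.1, the smallest that 3 against 3 allow). Luminal markers were higher for 12 of 17 genes, 0 called, with the groups apart for 4 that were higher and 1 that was lower. Their summed linear values were 115650 to 141445 in WT and 136213 to 148097 in KO. Basal markers were higher for 5 of 12, 0 called (25155 to 33305 and 25454 to 32503). The luminal keratin gene Krt8 was at 14.59, 14.40 and 14.58 in WT and 14.61, 14.71 and 14.60 in KO. Its groups were apart at a difference of 0.12. Endothelial markers were higher for 14 of 14 genes, 2 of them called (summed linear values of 9076 to 13674 in WT and 14300 to 20334 in KO), fibroblast markers for 12 of 14, 2 called (35868 to 40300 and 41289 to 63211), adipocyte markers for 6 of 9, 1 called (18185 to 20698 and 22042 to 23103), and markers of macrophages and lymphocytes had negative differences for 17 of 17, 0 called (3460 to 14017 and 2632 to 6837). The groups were also apart for 6 endothelial, 4 fibroblast and 4 adipocyte markers, all higher in KO. They were apart for 0 basal and 0 macrophage and lymphocyte markers. Over the brightest probe sets of all 18193 genes, 7066 differences were positive and 11127 negative, and 94 were called higher and 84 lower. Of these 18193, the groups were apart for 1309 that were higher and 2938 that were lower. The part of the cell types marked above in the members' differences was not tested. Fewer cells of a type and less RNA per cell cannot be told apart in such samples.

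Among the members, 1 probe set each of Ctnnb1, Gsk3b and Csnk1a1 rose in KO, and none fell. A probe set was called when its p from limma, before adjustment, was under 0.01 and its change reached 2-fold. The 3 rises are 9.68% of the 31 probe sets, while of all probe sets 1.69% were called higher, 0.3% lower and 1.99% either way. No member passed an adjusted p under 0.05, with a smallest adjusted p of 0.063. At an unadjusted p under 0.05, 10 were higher and 3 lower, which is 32.3% and 9.68% against 9.54% and 9.74% of all probe sets. The groups did not overlap for 9 probe sets that were higher and 4 that were lower in KO. These are 29% and 12.9%, against 10.7% and 13.6% of all. The study reported higher Ctnnb1, Gsk3b and Dvl1 from these same arrays, and the members were chosen with earlier results known. The shares of members are thus not independent of that choice, and nothing is read from their excess. On the brightest probe set of each gene, the one with the highest mean over the 6 arrays, 0 of 10 genes were called (with limma, 2 were higher and 1 lower at p under 0.05 before adjustment), against 0.978% of all genes. The count of 3 was 1 without WT2, KO5 or KO7 and 0 with the 3' minus 5' difference as a covariate.

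**Figure D1:**
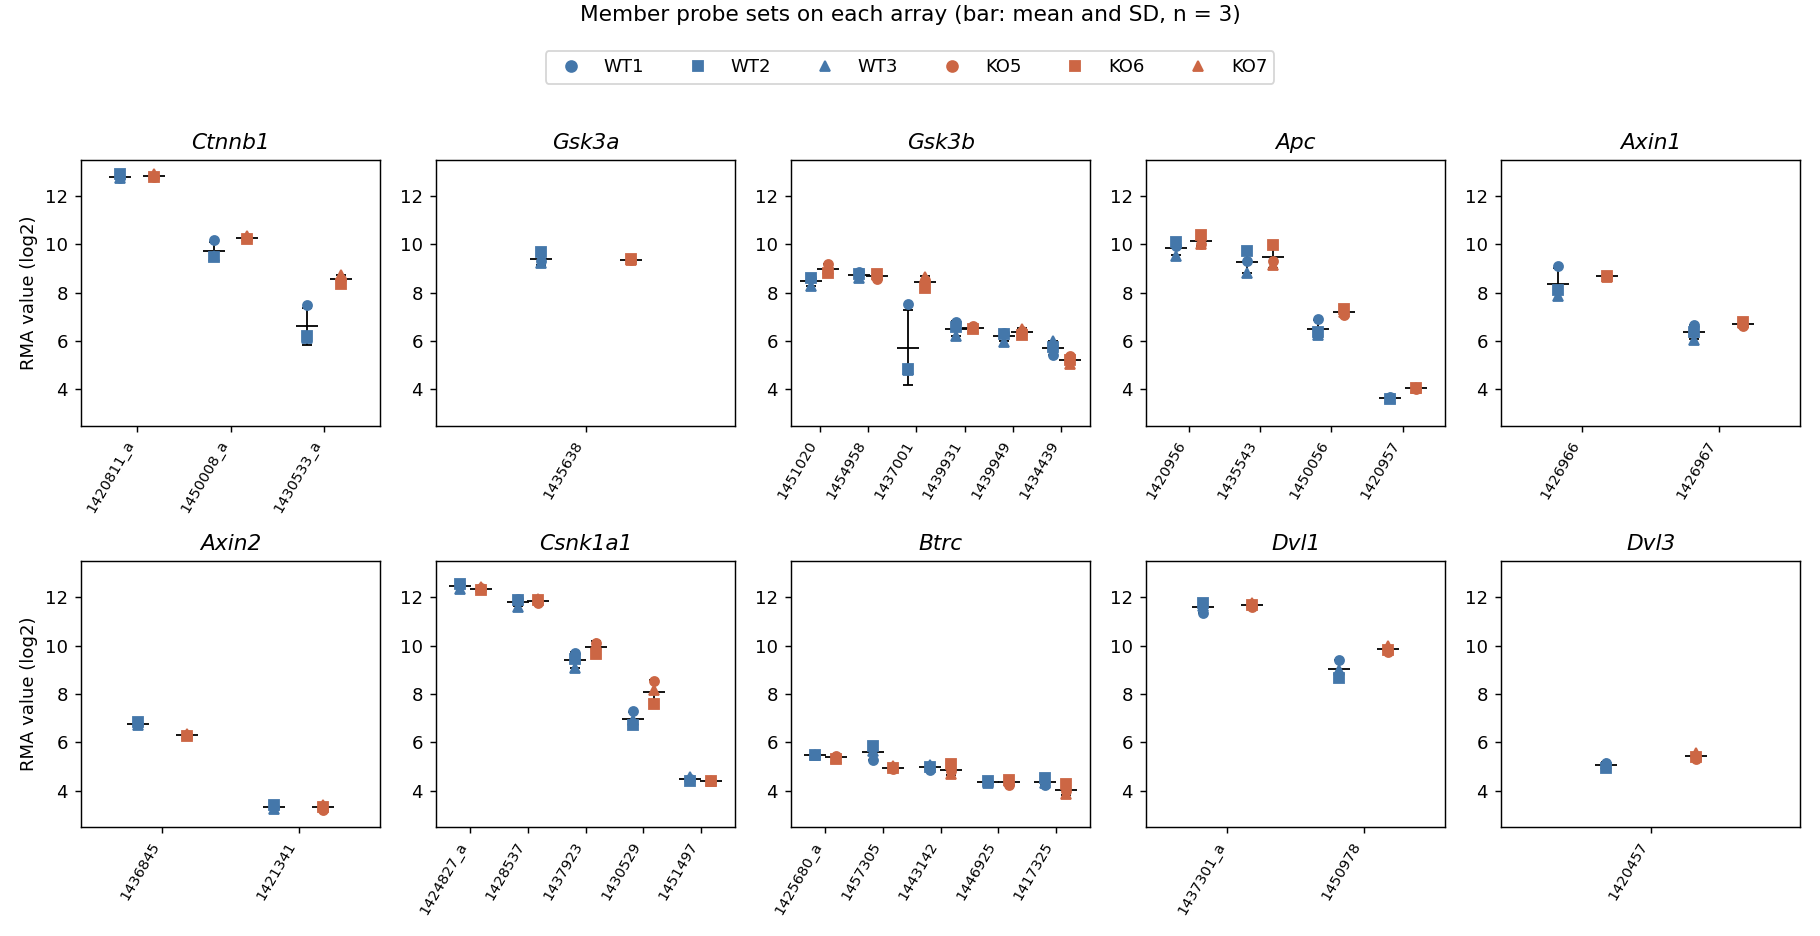
Deposited RMA value (log2) of each member probe set on each array, 1 panel per gene with its probe sets in order of mean value; points are arrays, and bars show each group's mean with its SD over 3 mice. On the Gsk3b probe set 1437001_at WT1 lay at 7.51, between WT2 and WT3 below 5 and the KO arrays above 8.

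β-catenin itself gave 3 different readings. The probe set 1430533_a_at of Ctnnb1 was at 7.49, 6.20 and 6.13 in WT and 8.58, 8.34 and 8.73 in KO. All KO arrays lay above all WT arrays, and WT1 stood between WT2 and WT3 on one side and KO on the other. The log2 change was 1.94 (SE 0.35, limma adjusted p = 0.063), or 3.85-fold. The probe set 1450008_a_at was at 10.16, 9.46 and 9.51 in WT and 10.26, 10.23 and 10.34 in KO, a difference of 0.57 that was not called (adjusted p = 0.18 by limma), with WT1 close to the KO arrays. The brightest, 1420811_a_at, was at 12.74, 12.92 and 12.76 in WT and 12.80, 12.79 and 12.89 in KO. On it the groups overlapped, and the difference was 0.02 with a 95% interval of -0.23 to 0.27. The probe set that rose differed in its change from the brightest by 1.92 (SE 0.35, limma adjusted p = 0.023 on the differences within genes).

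Gsk3b, 1 of the 2 genes of glycogen synthase kinase 3, had 6 probe sets that did not share a direction. On 1437001_at the WT arrays were at 7.51, 4.85 and 4.79 and the KO arrays at 8.53, 8.18 and 8.63. The WT arrays were far apart (SD 1.56, against 0.24 in KO), and WT1 alone of them approached the KO level. The log2 change of 2.73 (SE 0.68, limma adjusted p = 0.099), or 6.65-fold, was the widest among the 31 member probe sets. It was not called without any 1 of WT2, WT3, KO5, KO6 and KO7, at 2.27 to 2.87, and without WT1 it was called at 3.63. The brightest probe set, 1451020_at, was at 8.61, 8.60 and 8.26 in WT and 9.20, 8.79 and 8.97 in KO, so that the groups were apart at a difference of 0.50 (adjusted p = 0.15 by limma). The probe set 1454958_at, nearly as bright, was at 8.87, 8.77 and 8.61 in WT and 8.58, 8.75 and 8.75 in KO, with overlap and a difference of -0.05. In the other direction, 1434439_at was at 5.42, 5.76 and 5.99 in WT and 5.36, 5.20 and 5.05 in KO, and every KO array lay below every WT array (difference -0.52, adjusted p = 0.16 by limma). The last 2 probe sets of Gsk3b differed by 0.03 and 0.19, and their groups overlapped. Relative to the brightest, the change of 1437001_at was larger by 2.23 (adjusted p = 0.057 by limma). That of 1434439_at was smaller, by a difference of -1.02 (adjusted p = 0.042 by limma), and both were called. These calls rest on a near tie for the brightest, since 1451020_at and 1454958_at had means of 8.74 and 8.72 over the 6 arrays. Differences from 1454958_at, whose own change was -0.05, were not tested. Gsk3a, the other gene of this kinase, had 1 probe set, at 9.31, 9.69 and 9.21 in WT and 9.37, 9.38 and 9.35 in KO. The groups overlapped at a difference of -0.04, with a 95% interval of -0.37 to 0.30.

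Csnk1a1, which encodes casein kinase 1α, the kinase that primes β-catenin, rose on 1430529_at. The WT arrays were at 7.29, 6.71 and 6.93 and the KO arrays at 8.54, 7.60 and 8.16, a log2 change of 1.13 (SE 0.25, limma adjusted p = 0.085). The groups were apart, with KO6 the lowest KO array and WT1 the highest WT array. It was not called without WT2, at 0.99, without KO5, at 0.90, or without KO7, at 1.10. On 1437923_at the WT arrays were at 9.70, 9.46 and 9.07 and the KO arrays at 10.10, 9.66 and 10.06, a difference of 0.53 with WT1 above KO6. The brightest probe set, 1424827_a_at, was at 12.50, 12.57 and 12.36 in WT and 12.38, 12.29 and 12.42 in KO, with overlap and a difference of -0.11 (95% interval -0.36 to 0.15). The remaining probe sets differed by 0.05 and -0.07. The change of 1430529_at exceeded that of the brightest by 1.23 (adjusted p = 0.029 by limma), and that of 1437923_at by 0.64, which was not called (adjusted p = 0.073 by limma).

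The scaffold genes had smaller differences, and none of their probe sets was called. Apc was higher on each of its 4 probe sets, by 0.20 to 0.67. The probe set 1450056_at was at 6.90, 6.37 and 6.26 in WT and 7.06, 7.31 and 7.18 in KO, with the groups apart (difference 0.67, adjusted p = 0.12 by limma). The dimmest, 1420957_at, was at 3.69, 3.62 and 3.66 in WT and 4.03, 4.06 and 4.06 in KO, also apart but among the low values of the array (difference 0.39, adjusted p = 0.099 by limma). On the brightest, 1420956_at, the groups overlapped. The WT arrays were at 9.92, 10.12 and 9.51, KO5 and KO7 lay between WT1 and WT2, and KO6 was at 10.37. The within-gene test found no Apc probe set to differ from the brightest by the limits of a call. Axin1 was higher by 0.31 and 0.35 on its 2 probe sets, each with overlap. On the brighter, 1426966_at, WT1 was the highest of all 6 arrays, at 9.12, while WT2 and WT3 were at 8.12 and 7.86 and the KO arrays between 8.65 and 8.71. Without WT1 its difference was 0.69, against WT1 alone it was -0.44, and with the 3' minus 5' covariate the 2 probe sets were at -0.74 and -0.0032.

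Axin2, the scaffold that is itself a target of β-catenin, lay on the other side. Its brightest probe set, 1436845_at, was at 6.77, 6.85 and 6.71 in WT and 6.31, 6.28 and 6.33 in KO. Both groups were tight (SD 0.07 in WT and 0.03 in KO), and all KO arrays lay below all WT arrays. The difference was -0.47 (SE 0.10, limma adjusted p = 0.079), or 1.38-fold lower, short of the 2-fold limit. It was -0.43 with the 3' minus 5' covariate, -0.46 against WT1 alone and -0.39 after centring on ribosomal protein genes. The second probe set of Axin2, 1421341_at, lay near the floor of the array at 3.18 to 3.42, and its groups overlapped.

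Btrc, whose product recognises phosphorylated β-catenin for the ubiquitin ligase, had negative differences on each of its 5 probe sets, from -0.63 to -0.01, and the smallest turned positive after cyclic loess normalization, at 0.01, and after ribosomal protein centring, at 0.07. The widest was that of 1457305_at, at 5.27, 5.86 and 5.63 in WT and 4.90, 4.95 and 5.02 in KO. Its groups were apart, with WT1 the nearest of the WT arrays to KO (difference -0.63, adjusted p = 0.10 by limma). The brightest, 1425680_a_at, was at 5.46 in each WT array and at 5.44, 5.32 and 5.36 in KO, and the groups were apart at a difference of -0.08 (adjusted p = 0.70 by limma). No Btrc probe set was called, and none differed from the brightest by the limits of a call.

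Of the Dishevelled genes, which act above the complex, Dvl1 was higher on 1450978_at. The WT arrays were at 9.42, 8.67 and 8.99 and the KO arrays at 9.74, 9.81 and 9.99, so that the groups were apart, and WT1 was again the highest WT array. The difference of 0.83 (SE 0.19, limma adjusted p = 0.090), or 1.77-fold, passed the limit on p and not that on fold, and without WT1 it was called at 1.02. The brightest Dvl1 probe set, 1437301_a_at, was at 11.35, 11.78 and 11.63 in WT and 11.61, 11.70 and 11.77 in KO, with overlap and a difference of 0.11 (95% interval -0.22 to 0.43). The 2 changes differed by 0.72 and were not called apart (adjusted p = 0.14 by limma). Dvl3 had 1 probe set, at 5.16, 4.92 and 5.12 in WT and 5.29, 5.40 and 5.57 in KO, with the groups apart at a difference of 0.35 (adjusted p = 0.19 by limma). Dvl2, a Dishevelled gene outside the members, was at 5.55, 5.27 and 5.29 in WT and 5.65, 5.67 and 5.86 in KO on its brighter probe set, a difference of 0.36, and differed by 0.09 on the other.

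**Figure D2:**
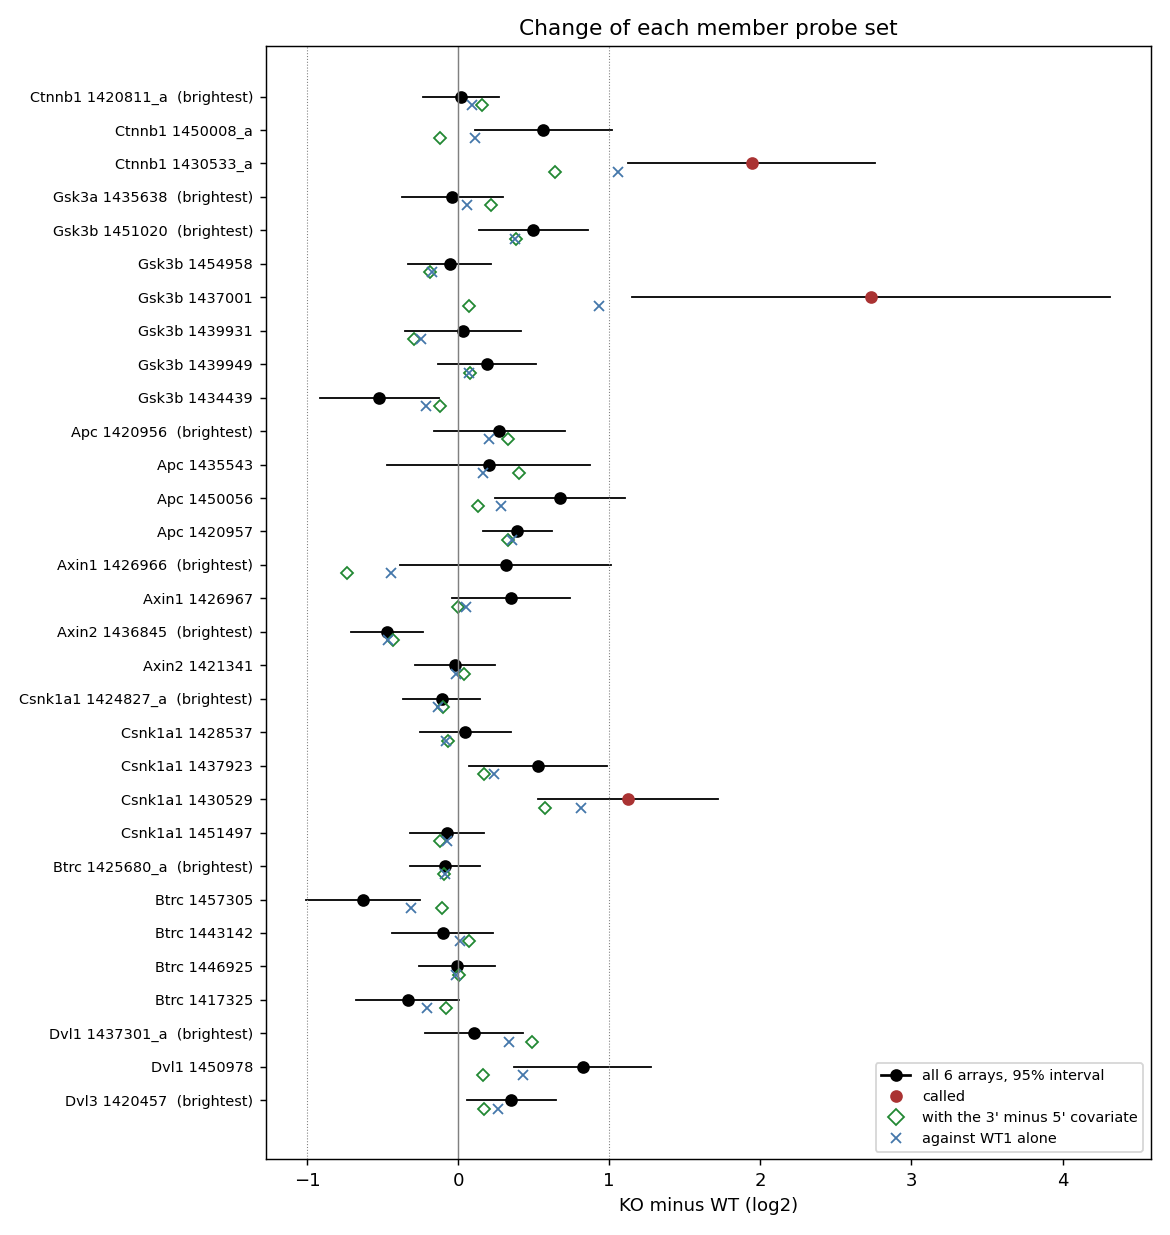
KO minus WT (log2) of each member probe set with its 95% interval from limma; red points were called, diamonds give the value with the 3' minus 5' covariate and crosses that against WT1 alone, and dotted lines mark a 2-fold change. The 3 called probe sets lay at 1.13, 1.94 and 2.73 and, with the covariate, at 0.58, 0.64 and 0.07.

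Probe sets of the same member did not all change alike. Of the 21 probe sets that could be set against the brightest of their gene, 4 had a change that differed from it by the limits of a call. This is 19%, against 4.31% of 16752 such differences on the array. Of the 4, 3 rose more than the brightest (14.3%, against 3.65%). The other 1, the Gsk3b probe set 1434439_at, was lower by -0.52 while its brightest was higher by 0.50 (0.657% over the array in this direction). The count of 4 was 2 without WT3, KO5 or KO7 and 0 with the 3' minus 5' covariate. All probe sets had 1 sign in 6 of the 8 members with several, namely Ctnnb1, Apc, Axin1, Axin2, Btrc and Dvl1, while across the array this held for 47.5% of genes with several probe sets. The count of members was 5 after quantile normalization, where Axin2 split, 4 after cyclic loess or ribosomal protein centring, where Axin2 and Btrc split, and 3 with the 3' minus 5' covariate, where Ctnnb1 split too, so nothing is read from it. Of the 498 genes with several probe sets and a called rise, 56 had their brightest probe set among the rises, and of the 3 such members 0 did. The 3 member probe sets that rose were all built on representative sequences other than RefSeq mRNAs, and none of the 8 on a RefSeq mRNA was called. The other 23 of the 31 include the brightest Dvl1 probe set, for which no representative sequence was given. Over the whole array 1.25% of probe sets on a RefSeq mRNA were called higher. Of all others, which include those with no representative sequence given, 1.75% were.

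Several of these differences moved with the 3' minus 5' difference of the arrays, which also set WT1 nearest to KO. WT1 was the highest WT array for 17 of the 31 member probe sets (54.8%, against 31.4% of all probe sets), and for all 3 that rose. Among called rises of the other pathway genes below, WT1 was also the highest for those of Ptprf, Cttn, Sox9, Usp7 and Nectin4. It was not for that of Fst. Against WT1 alone, 1 member was called, the Ctnnb1 probe set 1430533_a_at at 1.06, while the Gsk3b probe set 1437001_at was at 0.93 and the Csnk1a1 probe set 1430529_at at 0.81. With the 3' minus 5' difference as a covariate the 3 were at 0.64, 0.07 and 0.58 and 0 were called (with limma, 1 was higher and 0 lower at p under 0.05 before adjustment, the brightest Dvl1 probe set at 0.49). The widest member value in that fit was the -0.74 of the brighter Axin1 probe set, and the Ctnnb1 probe set 1450008_a_at was at -0.12, the Dvl1 probe set 1450978_at at 0.16 and the Btrc probe set 1457305_at at -0.11. Without WT1, 4 members were called higher, while 3.02% of all probe sets were. In that fit 9 of the 31 passed an adjusted p under 0.05, against 3623 of all 45037 probe sets. The 3' minus 5' difference separates the groups on these arrays, so that its part in the differences and that of Wwox cannot be told apart.

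**Figure D3:**
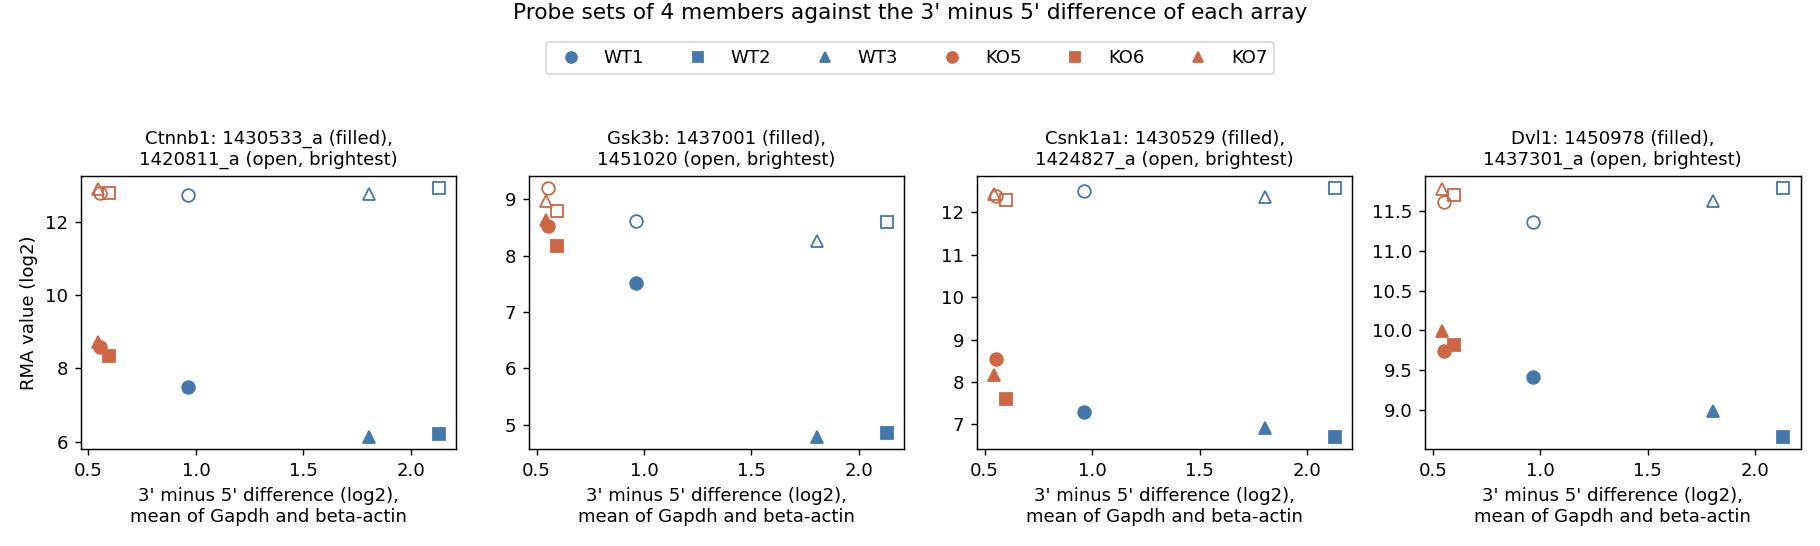
RMA value (log2) of the member probe set with the widest rise (filled) and of the brightest probe set (open) against the 3' minus 5' difference (log2) averaged over Gapdh and β-actin on each array, for Ctnnb1, Gsk3b, Csnk1a1 and Dvl1. KO arrays lie at 0.54 to 0.60 on the horizontal axis and WT arrays at 0.96 to 2.13, and the filled points of WT1 lie between the other WT arrays and KO.

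The pattern of the member with the smallest p, the Ctnnb1 probe set 1430533_a_at, was shared by many other probe sets. Over the 6 arrays, which fall into the 2 groups, 81 probe sets of other genes had a Pearson r above 0.99 with it. The 5 most alike were those of Gtpbp2, Luc7l2, Mafg, Syne2 and Zfp871, at r of 0.998 to 0.999, and their log2 changes were 0.56, 1.72, 1.03, 0.79 and 1.32. These values describe likeness only, since the points share the arrays and the difference between groups.

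Among the rest of the cytoplasmic machinery, 0 of 45 genes measured were called on their brightest probe set (with limma, 6 were higher and 4 lower at p under 0.05 before adjustment), with a median difference of 0.01 against -0.06 over all genes. Across all genes 6.17% were higher and 13% lower at that p. On the brightest probe set 0.978% of all genes were called, so nothing is read from a count of 0 in this list or those below. The genes higher at an unadjusted p under 0.05 included Ctnnbip1, which encodes an inhibitor that keeps β-catenin from TCF, by 0.70 (adjusted p = 0.068 by limma), and Ppp2r5b, a regulatory subunit of protein phosphatase 2A, by 0.82 (adjusted p = 0.073 by limma). Csnk1g2, of casein kinase 1γ, was higher by 1.01 (adjusted p = 0.19 by limma). Cul1, the cullin of the ubiquitin ligase that Btrc serves, had a difference of -0.50, with the groups apart (adjusted p = 0.098 by limma), and Ppp2r1b, of a scaffold subunit of protein phosphatase 2A, one of -0.49 (adjusted p = 0.13 by limma). Without WT1, Csnk1e, at 1.13, Csnk1g2, at 1.44, and Ppp2r5b, at 1.01, were called, so that the count was 3. With any probe set counted, 1 gene was called, the deubiquitinase gene Usp7, at 1.49. Across the array 498 of the 9010 genes with several probe sets had a called rise, while the 45 were not limited to such genes.

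Of textbook targets of β-catenin and TCF other than Axin2, 0 of 32 were called on their brightest probe set (with limma, 2 were higher and 3 lower at p under 0.05 before adjustment), with a median difference of -0.05. Ccnd1, of cyclin D1, was at 11.46, 11.21 and 10.89 in WT and 11.17, 10.81 and 11.39 in KO, with overlap and a difference of -0.07. Its other probe sets differed by 0.61 (adjusted p = 0.21 by limma) and 0.23. Myc differed by -0.33 on its 1 probe set (adjusted p = 0.33 by limma), and Fgf20, among the low values, by -0.16. At an unadjusted p under 0.05, Procr, of the endothelial protein C receptor, and Jun were higher, by 0.51 and 0.53, and Ccn5, Id2 and Cd44 were lower, at -0.54, -0.55 and -0.69. Lef1, which encodes a TCF/LEF factor, varied widely among WT mice, at 8.08, 6.77 and 5.13, against 4.94, 6.39 and 5.08 in KO. Cd3g, from the macrophage and lymphocyte markers, had the same order of the arrays. It was at 9.24, 7.67 and 5.15 in WT and 4.61, 6.31 and 4.64 in KO. The part of lymphocytes in the Lef1 values was not tested. Birc5, of survivin, was at 5.47, 5.33 and 8.27 in WT and 7.05, 6.82 and 7.91 in KO. Without WT3 both Lef1, at -1.96, and Birc5, at 1.86, were called, as they were against WT1 alone, and these 2 genes were chosen after their values were seen. On probe sets other than the brightest, Sox9, of a transcription factor, at 1.01, and Fst, of follistatin, at 1.43, rose. These are 2 of the 32 genes, against 498 of the 9010 genes with several probe sets across the array. The 32 were not limited to genes with several probe sets.

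**Figure D4:**
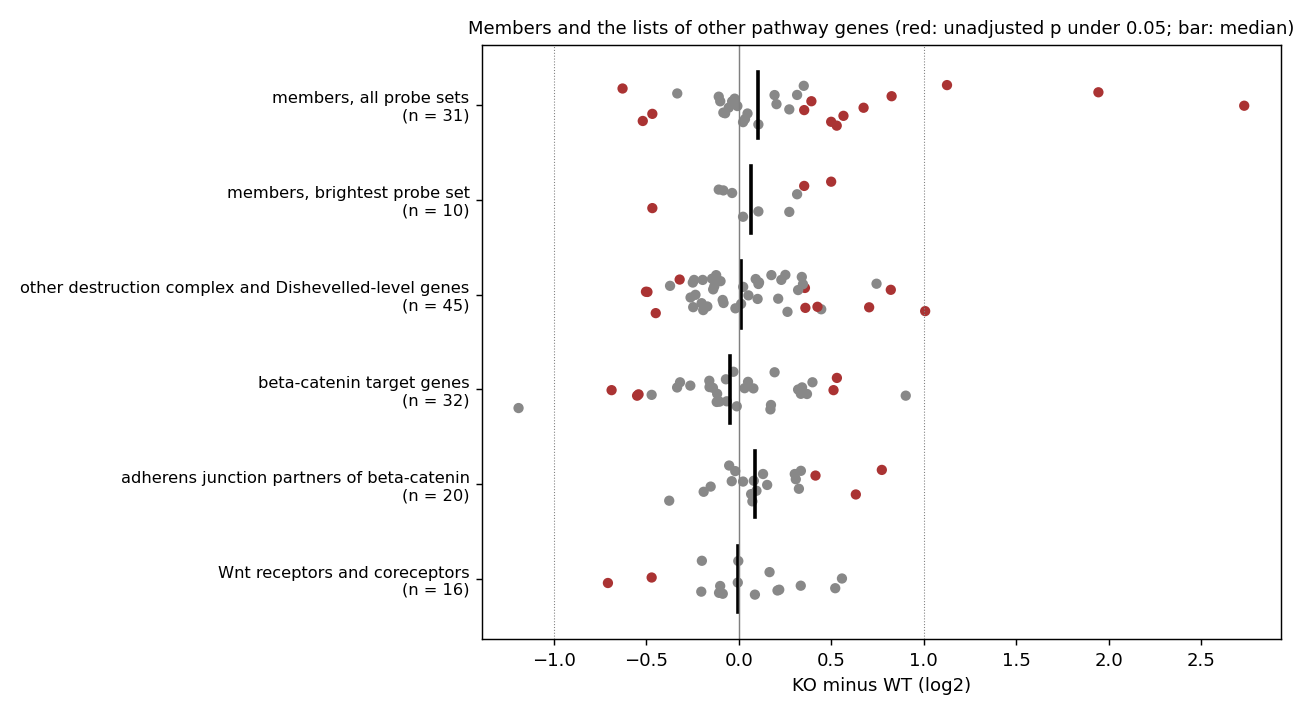
KO minus WT (log2) of the 31 member probe sets, of the brightest probe set of each member and of the brightest probe set of the genes of 4 lists; points are probe sets, red at an unadjusted p under 0.05, and bars the medians. The median was 0.11 for the members, 0.06 for their brightest probe sets, 0.01 for the rest of the cytoplasmic machinery and -0.05 for the targets.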

How the data were processed

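RNA from 6 organoid preparations, 1 per mouse, was hybridised to Affymetrix whole-genome mouse arrays. The deposited log2 values came from RMA per the labels, a method that corrects background, equalises the arrays by quantiles and summarises the probes of a probe set, and simpleaffy was the package used by the authors for these steps and for quality control. They were used unchanged. The 64 control probe sets of the 45101 were kept for the 3' minus 5' differences and not tested.

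KO minus WT was fitted with limma 3.58.1 in R 4.3.3 (lmFit, eBayes, no covariate) over 45037 probe sets, and p-values were adjusted by Benjamini and Hochberg over all of them. The same fit was run on the difference per array between each further probe set and the brightest of its gene, over 16752 such differences. Both steps were tested on simulated data. Genes were named from probe sets with 1 symbol in the platform annotation, promoters from RefSeq, for 6 of the 10 members. The members and the gene lists were chosen with earlier results of these data known. Named were all member probe sets, called genes of each list, genes named in the study, Wwox, and the 5 probe sets most alike to the member of smallest p. Any other gene of a list or marker set is named as an example and was chosen after its values were seen, as were those at an unadjusted p under 0.05. A list counts the genes called on their brightest probe set, and 1 value per gene came from that probe set. Alternatives were other normalizations, ribosomal protein centring, a minimum mean of 6, other variance priors, array weights, the replicate number as a block, the 3' minus 5' covariate, WT1 as the only control, each array left out, and other limits. In the fit against WT1 alone, WT1 was taken to vary as KO does. Precision is limited by having 3 mice in each group. Plots were made in Python 3.11.15 with matplotlib 3.10.9.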

Additional observations from a re-analysis of the deposited data

How the results depend on the processing

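The count of members called higher was 3 under quantile and cyclic loess normalization, ribosomal protein centring, a minimum mean log2 value of 6, a trended and robust prior, array weights and the replicate block. It was 0 with unmoderated variances, with the 3' minus 5' covariate and at an adjusted p under 0.05 with no fold limit, 1 against WT1 alone and 6 at a p under 0.01 with no fold limit, and it ranged from 1 to 4 with an array left out. The limit on p alone also gave 2 members called lower, Axin2 and Btrc, against 0 in the other settings. Probe sets that differed from the brightest of their gene were 4. They were 3 with a trended and robust prior, with a minimum mean log2 value of 6 and at an adjusted p under 0.05 with no fold limit, 5 at a p under 0.01 with no fold limit, and 0 with unmoderated variances, with the covariate and against WT1 alone, with a range of 2 to 5 with an array left out. Genes called among the rest of the cytoplasmic machinery were 0, and 1 with array weights or with any probe set counted and 4 at a p under 0.01 with no fold limit, with a range of 0 to 3 with an array left out. Target genes called were 0, and 2 against WT1 alone, with any probe set counted or at a p under 0.01 with no fold limit, with a range of 0 to 2 with an array left out. The cause of these shifts was not tested. Over all probe sets, 759 were called higher and 135 lower, against 250 and 49 with unmoderated variances, 1358 and 276 without WT1, 481 and 85 without WT2, 137 and 179 with the covariate, and 277 and 375 against WT1 alone. No called member changed its sign in any of these settings. This did not hold for the differences within genes. That of the Gsk3b probe set 1437001_at from the brightest was 2.23 and called, and it was -0.31 with the 3' minus 5' covariate, not called.

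Same-numbered WT and KO arrays had correlations of their deviations from the group means of -0.16, 0.16 and 0.10, so the numbers were not taken to pair the mice. With the replicate number as a block the members called higher were 3, those called lower 0, those differing from the brightest 4, and the genes called in both lists 0. The 3' minus 5' difference averaged over Gapdh and β-actin differed by -1.07 between KO and WT, and by -1.40 to -0.82 with an array left out. Signal over background limits what can be said of the 9 member probe sets below the median level of the array, those of Btrc and Dvl3 and the dimmest of Apc, Axin2 and Csnk1a1. It also bears on 2 Gsk3b probe sets. On 1437001_at, WT2 and WT3 lay at 4.85 and 4.79, below that median of 5.45, and 1434439_at had a mean of 5.46. Differences were positive for 19 of the 31 members, and for 20, 22 and 24 under quantile normalization, cyclic loess and ribosomal protein centring, so signs near 0 depend on the scaling.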

Other observations

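Of the partners of β-catenin at adherens junctions, 0 of 20 passed the limits of a call on the brightest probe set (with limma, 3 were higher and 0 lower at p under 0.05 before adjustment), with a median difference of 0.09. The 3 were Cdh5, the endothelial cadherin, which is also among the endothelial markers, at 0.77, Jup, of plakoglobin, at 0.63, and the phosphatase gene Ptpn1, at 0.41. Cdh1, of E-cadherin, was at 12.73, 12.62 and 12.50 in WT and 12.56, 12.75 and 12.60 in KO, and the groups overlapped. With any probe set counted 3 of the 20 genes were called, all rises, against 498 of the 9010 genes with several probe sets across the array. The 20 were not limited to genes with several probe sets. Ptprf, of a receptor phosphatase of cell junctions, was at 2.20 and 1.74 on 2 of its probe sets, Cttn, of cortactin, at 1.76 and 1.56, and Nectin4 at 1.27. On the first Ptprf probe set WT1 lay at 8.24, WT2 and WT3 at 6.32 and 6.10 and the KO arrays between 8.95 and 9.27, the same order of the arrays as for the Gsk3b probe set that rose.

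Among Wnt receptors and coreceptors 0 of 16 genes passed those limits on the brightest probe set (with limma, 0 were higher and 2 lower at p under 0.05 before adjustment), with a median of -0.0046. The lower ones were Fzd3, at -0.71 (adjusted p = 0.077 by limma), and Ror1, at -0.47. The coreceptor gene Lrp6 differed by 0.21 on its brightest probe set, with overlap. Its other probe set was at 6.77, 7.02 and 6.85 in WT and 7.55, 7.64 and 7.91 in KO, with the groups apart and WT1 the lowest of all 6 arrays (difference 0.82, adjusted p = 0.056 by limma). For these lists, too, the part of RNA quality and of other cell types was not tested.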
